A study of Mus musculus with 2 samples.

Results

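Aminoacyl-tRNA synthetases are the enzymes that join each amino acid to its transfer RNA. Their transcripts were read in cultures of rib chondrocytes, which lay down the cartilage matrix, from mice aged 5 days. The family was listed as 39 genes: 20 for cytosolic enzymes or their subunits, 16 for mitochondrial enzymes (symbols ending in 2) and 3 for scaffold proteins of the multisynthetase complex (Aimp1, Aimp2 and Eef1e1). The family was selected on its knockout minus wild-type values, because some members had stood lower in the knockout array, so those values are given as a description with no test. A member was used if a probe set named it alone and its brightest probe set had a log2 signal of at least 7 in either array. Of the 39 genes, 38 were named by a probe set and 35 met the rule (19 cytosolic, 13 mitochondrial and all 3 scaffolds), among 9897 genes of the whole table that reached the same floor. Dars was not named by any probe set used here. Cars2, Mars2 and Sars2 stayed under the floor.

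The study comprised 1 Affymetrix Mouse Genome 430 2.0 array of a wild-type culture and 1 array of a culture lacking miR-140, a cartilage-enriched microRNA. The strain label of both names C57BL/6 and CBA. The study used them to look for transcripts under the control of miR-140. How the mutant allele was built, how many mice gave cells to each culture and whether they were littermates are not given in the sources used here. With a single array per group there is no spread between cultures, so every value compares these 2 arrays and has no replicate check.

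In the cytosol these enzymes charge the transfer RNAs that ribosomes use to read nuclear messages. A separate, nuclear-encoded set of enzymes, imported into mitochondria, serves the organelle's own ribosomes. Gars and Kars are exceptions, since each gene gives rise to both the cytosolic and the mitochondrial enzyme. Several cytosolic enzymes are held together with the scaffold proteins in the multisynthetase complex, and others are not part of it. When amino acids run short or unfolded proteins build up, the transcription factor ATF4 raises many cytosolic synthetase genes by binding C/EBP-ATF response elements together with a C/EBP family partner. Chondrocytes make large amounts of collagen and other matrix proteins and so depend on a steady supply of charged transfer RNA.

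The microRNA absent from the knockout culture is shown first, as the strand for which a sequence was at hand (RefSeq, GRCm38.p6, chr8:107551288-107551308, plus strand), with the seed, bases 2 to 8, in capitals.
mmu-miR-140-3p: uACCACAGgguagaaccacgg

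The promoter windows of the members were then read for the core letters of the C/EBP-ATF element, the site through which ATF4 acts on cytosolic synthetase genes. Windows came from RefSeq on GRCm38.p6 and ran from 250 bases before to 50 bases after the annotated start, 300 bases in all. They were found for 30 members: 13 cytosolic, 14 mitochondrial and 3 scaffold genes. The motif TGATGNAA was searched on both strands, which appears as TTNCATCA when it lies on the other strand. It was found in the windows of 5 of the 13 cytosolic genes, in none of the 14 mitochondrial genes and in none of the 3 scaffold genes, and 3.97% of all 32851 windows held it. A match in each of the 5 genes is printed in a 30-base stretch, each written 5′ to 3′ on the strand of the gene, with the motif in capitals.
Aars (chr8:111033840-111033869, plus strand): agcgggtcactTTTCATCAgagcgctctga
Gars (chr6:55037960-55037989, plus strand): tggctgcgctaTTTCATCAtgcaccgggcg
Iars (chr13:49682126-49682155, plus strand): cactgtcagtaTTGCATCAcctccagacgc
Tars (chr15:11399655-11399684, minus strand): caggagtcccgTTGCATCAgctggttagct
Yars (chr4:129189895-129189924, plus strand): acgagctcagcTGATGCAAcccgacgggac

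Of these matches, that of Gars began 30 bases and that of Tars 15 bases before the annotated start. The Yars, Iars and Aars matches began at bases 4, 8 and 10 of the transcript. The motif CACGTG, an E-box bound by MYC among other factors, shared no bases with these matches. It lay in 4 of the 13 cytosolic windows (Aars, Farsb, Iars and Tars) and in 1 of the 14 mitochondrial windows (Ears2), against 7.15% of all windows. A match describes letters in a window and does not show binding.

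Differences are log2 values, knockout minus wild type, so a negative value means lower signal in the knockout. Most cytosolic synthetase transcripts had somewhat lower signal in the knockout array, and none differed by 1.5-fold. Of 19 cytosolic genes, 16 were lower (84.2%) and 3 were higher, with a median of -0.20. Over all 9897 compared genes 59.2% were lower and the median was -0.05. Mitochondrial enzymes had a median of -0.07, and 9 of 13 were lower (69.2%). The cytosolic median thus stood 0.13 below the mitochondrial one (a difference of -0.13). At least 1.5-fold lower signal was found for 0 of 19 cytosolic and 0 of 13 mitochondrial genes, against 3.56% of all compared genes, and at least 1.5-fold higher signal for none of them, against 1.56%. A threshold of 1.25-fold, chosen after the values had been seen, was passed in the lower direction by 4 of 19 cytosolic genes (21.1%) and 0 of 13 mitochondrial genes, against 11.1% of all genes. In the higher direction it was passed by 0 cytosolic genes and 1 mitochondrial gene, against 5.52%. Just short of it in the lower direction were the mitochondrial Tars2 (1.247-fold) and the cytosolic Farsb (1.246-fold). The lower quartile of all compared genes was -0.18, and 11 of the 19 cytosolic genes (57.9%) and 3 of the 13 mitochondrial genes (23.1%) lay under it.

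**Figure D1:**
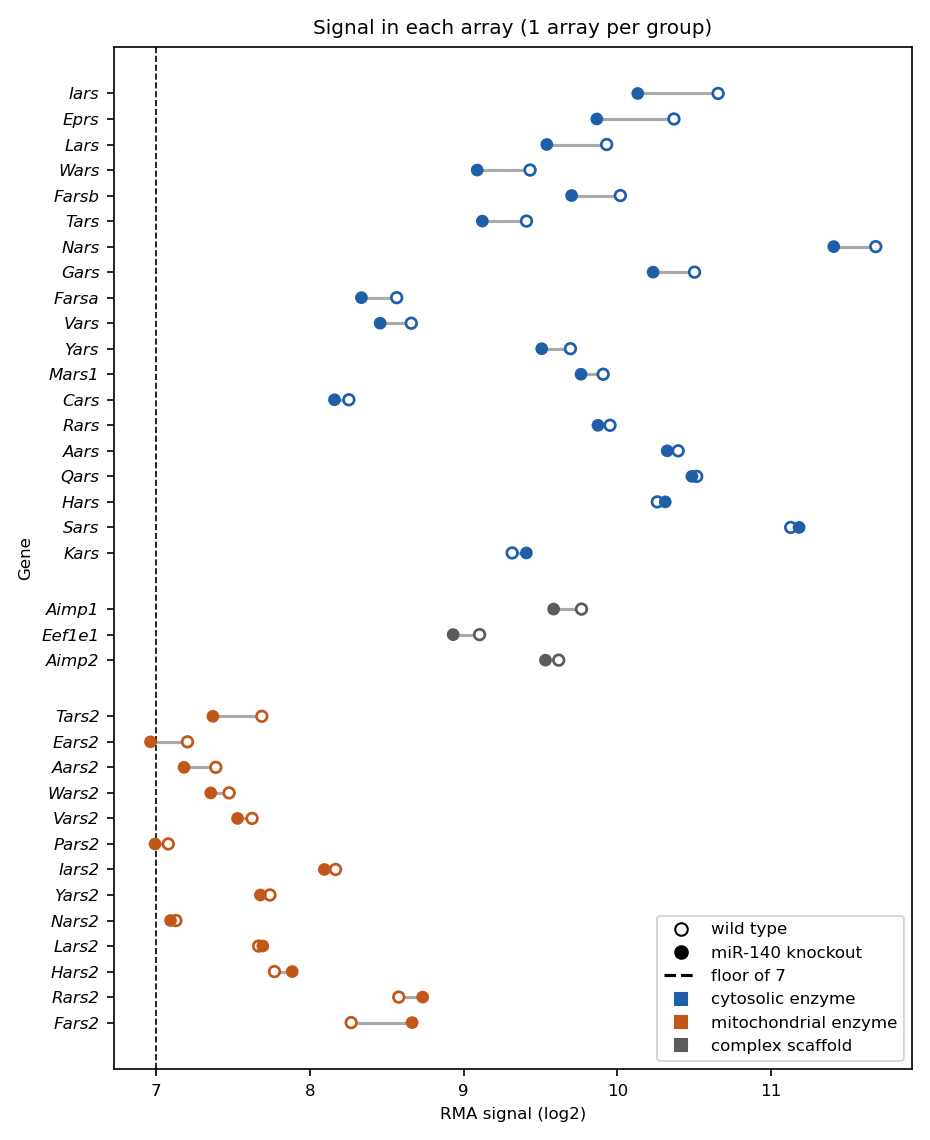
RMA signal (log2, horizontal axis) of the 35 members above the floor in the wild-type array (open circles) and the knockout array (filled circles), 1 array per group, by the brightest probe set of each gene. The filled circle lies to the left of the open one for 28 of the 35 genes, and the mitochondrial enzymes sit nearer the dashed floor of 7.

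Both groups were read over different ranges of signal, which depends on the probes as well as on the transcript. The mean of both arrays ran from 8.21 to 11.5 for the cytosolic genes and from 7.03 to 8.66 for the mitochondrial genes. RMA compresses differences of dim probe sets, and how far this narrowed the mitochondrial values was not tested. Among compared genes with a mean of 8 to 12, 58.8% were lower and 10.5% were at least 1.25-fold lower. Among those with a mean under 9, the shares were 59.5% and 11.7%. Members just inside the floor were Pars2 (7.08 in wild type, 6.99 in knockout), Nars2 (7.13 and 7.09) and Ears2 (7.20 and 6.96). Just outside it were Sars2 (6.85 and 6.74) and Cars2 (6.83 and 6.66), whereas Mars2 lay far under it (4.17 and 4.15).

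The lowest values among the cytosolic enzymes belonged to genes for isoleucine, for glutamate and proline, and for leucine. Iars, which charges isoleucine transfer RNA, had a signal of 10.65 in the wild-type array and 10.13 in the knockout array, which is -0.52 (1.44-fold lower). Of all compared genes 4.27% had a more negative difference. A further Iars probe set read 9.58 and 9.27, a difference of -0.31.

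Eprs, a fused enzyme that charges both glutamate and proline transfer RNA, read 10.37 and 9.87, a difference of -0.50 (1.42-fold lower). Its other probe sets over the floor stood at -0.50 and -0.35, so 3 of 3 were lower. Lars, the leucine enzyme, which also senses leucine for the growth regulator mTORC1, read 9.93 and 9.54 (-0.39, 1.31-fold lower) by its single probe set. With Vars, which charges valine, at 8.66 and 8.46 (-0.20), all 3 enzymes for branched-chain amino acids were lower in the knockout array. So were 16 of the 19 cytosolic genes and 59.2% of all compared genes.

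Wars, the tryptophan enzyme, which interferon also induces, read 9.43 and 9.09 (-0.34, 1.27-fold lower), but its 4 probe sets above the floor did not share a direction. They differed by -0.41, -0.34, -0.15 and 0.22, the last one being the dimmest. Cytosolic phenylalanyl-tRNA synthetase is built from the products of Farsa and Farsb. Farsb read 10.02 and 9.70 (-0.32), with other probe sets at -0.24 and 0.00. Farsa read 8.56 and 8.33 (-0.23), with dimmer probe sets at -0.06 and 0.07. Both subunit genes were thus lower by their brightest probe set, and a dimmer probe set of each gave a value of 0.00 or higher.

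Tars, the threonine enzyme, read 9.41 and 9.12 (-0.29). Nars, the asparagine enzyme, read 11.68 and 11.41 (-0.27), while its second probe set, at 10.84 and 10.82, differed by -0.02. Gars, the glycine enzyme, read 10.50 and 10.23 (-0.27). Glycine is the most frequent residue of collagen. Yars, the tyrosine enzyme, read 9.69 and 9.51 (-0.19).

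The remaining cytosolic genes differed less. Mars1, the methionine enzyme, read 9.91 and 9.76 (-0.14), Cars, for cysteine, 8.25 and 8.16 (-0.09), and Rars, for arginine, 9.95 and 9.87 (-0.08). Aars, for alanine, had probe sets of nearly equal brightness (means of 10.36 and 10.35) whose differences were -0.07 and -0.23, so its place in the order depends on which is used. Qars, for glutamine, read 10.52 and 10.48 (-0.03), with other probe sets at 0.05 and 0.12, and has no direction that holds across its probe sets.

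Hars, Sars and Kars stood slightly higher in the knockout array. Kars, for lysine, read 9.31 and 9.41 (0.09) and Sars, for serine, 11.13 and 11.18 (0.05), with a second Sars probe set at -0.05. Hars, for histidine, read 10.26 and 10.31 (0.05), with its other probe set at 0.13. None of these was as far from 0 as the upper quartile of all compared genes, 0.09, apart from Kars, which lay just above it.

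**Figure D2:**
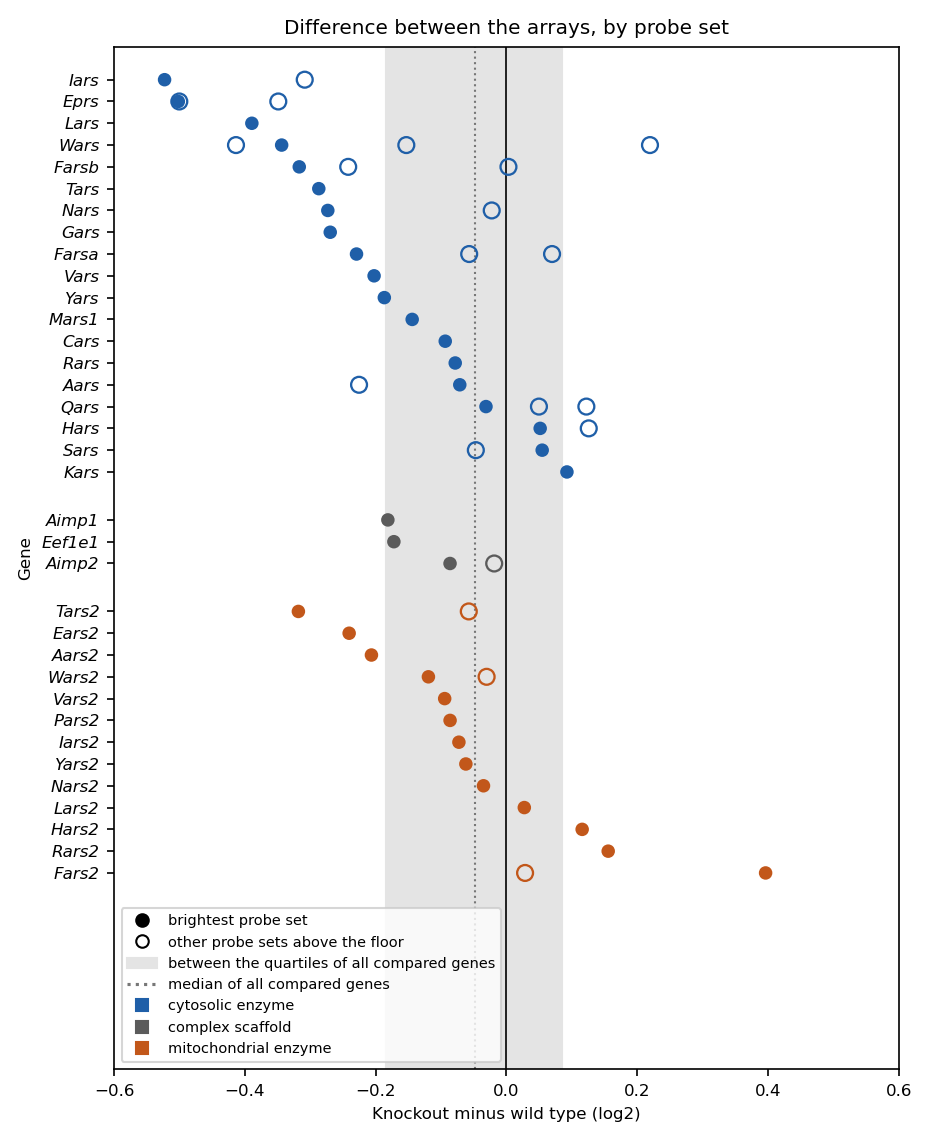
Knockout minus wild-type difference (log2, horizontal axis) of each member by its brightest probe set (filled) and by its other probe sets above the floor (open), with the quartile range and median of all compared genes in grey. Cytosolic values run from -0.52 (Iars) to 0.09 (Kars) and mitochondrial values from -0.32 (Tars2) to 0.40 (Fars2), so the groups overlap.

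Repeated probe sets of a gene read the same RNA and are not replicates, but they show how far a value depends on the probes. More than 1 probe set above the floor was present for 14 members. All were lower for 7 of them (Aars, Eprs, Iars, Nars, Tars2, Wars2 and Aimp2), all were higher for 2 (Hars and Fars2), and the signs differed for 5 (Farsa, Farsb, Qars, Sars and Wars).

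Members of the multisynthetase complex were next set beside the cytosolic enzymes outside it. The 7 complex enzymes measured had a median of -0.14 and ranged from -0.52 to 0.09, with 6 lower (85.7%). The 12 enzymes outside the complex had a median of -0.22 and ranged from -0.34 to 0.05, with 10 lower (83.3%). Of all compared genes 59.2% were lower. The complex thus held both the most negative values (Iars, Eprs and Lars) and the highest (Kars). Its scaffolds were lower by small amounts. Aimp1, which is also released as a cytokine, read 9.77 and 9.58 (-0.18), Eef1e1 read 9.10 and 8.93 (-0.17), and Aimp2 read 9.62 and 9.53 (-0.09).

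Synthetases fall into classes I and II by the fold of their catalytic domain, and Eprs, which joins one of each, was counted with class I. All 10 class I genes were lower (59.2% of all compared genes were), although Qars turns higher in 4 alternatives and 9 of the 10 lay below the median of all genes. They had a median of -0.19 (range -0.52 to -0.03). Of the class II genes, 6 of 9 were lower, with a median of -0.23 (range -0.32 to 0.09). The ranges overlapped, and class II had the lower median although it held the 3 genes that were higher.

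The mitochondrial enzymes were split, with 9 lower and 4 higher, a share lower of 69.2% beside 59.2% of all compared genes. Tars2, the threonine enzyme, read 7.69 and 7.37 (-0.32), with a dimmer probe set at -0.06. Ears2, for glutamate, differed by -0.24 and Aars2, for alanine, which read 7.39 and 7.18, by -0.21. The knockout signal of Ears2 lay under the floor. Wars2 (-0.12), Vars2 (-0.09), Pars2 (-0.09), Iars2 (-0.07), Yars2 (-0.06), Nars2 (-0.04) and Lars2 (0.03) lay between the quartiles of all compared genes.

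Higher signal was found for Hars2, at 7.77 and 7.88 (0.12), and for Rars2, at 8.58 and 8.73 (0.16). Fars2, the mitochondrial phenylalanine enzyme, read 8.27 and 8.66, or 0.40 (1.32-fold higher), the farthest upward of all 35 members. Its dimmer probe set, at 7.26 and 7.29, differed by 0.03, so the size of this value rests on 1 probe set.

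Setting the enzymes of the same amino acid side by side gave 14 comparisons over 13 amino acids, in which Eprs and Fars2 each enter more than once. The cytosolic gene had the more negative difference in 12 of 14, and the median gap was -0.24. The widest gaps were those of phenylalanine, at -0.71 for Farsb against Fars2 and -0.63 for Farsa against Fars2, but with the dimmer Fars2 probe set they were -0.35 and -0.26, nearer to 0 than those of isoleucine and leucine. Isoleucine followed at -0.45, then leucine and proline at -0.42 each. The gap was -0.06 for histidine, where both genes were higher in the knockout. Alanine (0.14) and threonine (0.03) went the other way, and with the second Aars probe set, at -0.23, the alanine enzymes would differ little.

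**Figure D3:**
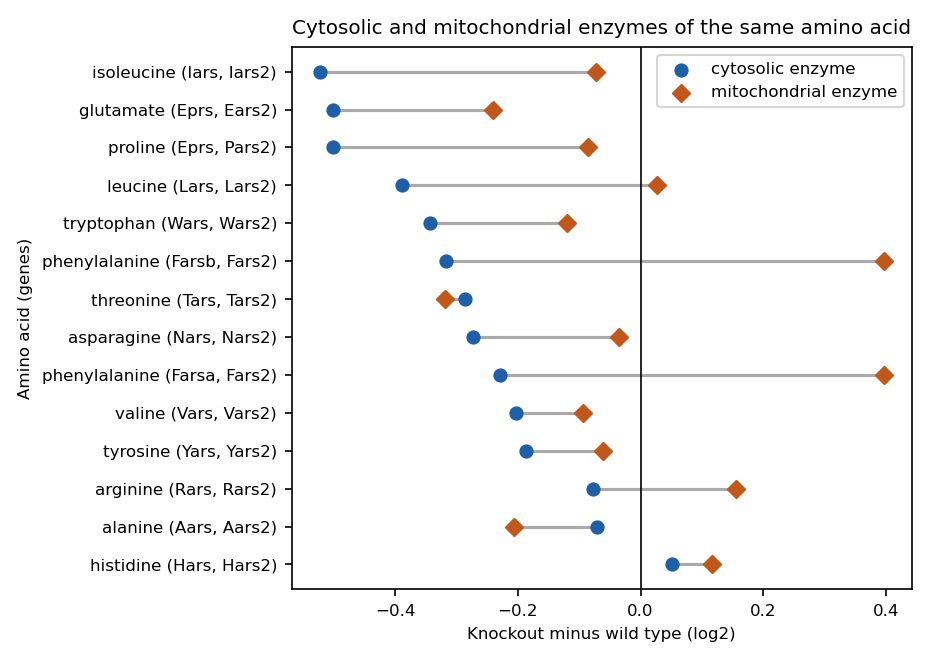
Knockout minus wild-type difference (log2, horizontal axis) of the cytosolic enzyme (blue circles) and the mitochondrial enzyme (orange diamonds) for the same amino acid, ordered by the cytosolic value. The blue circle lies to the left in 12 of 14 rows, and alanine and threonine are the exceptions.

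Cytosolic genes with the C/EBP-ATF letters in their window overlapped those without. The 5 with a match (Aars, Gars, Iars, Tars and Yars) ran from -0.52 to -0.07 with a median of -0.27. The 7 without one that had a window and met the floor ran from -0.50 to 0.09 with a median of -0.14. Eprs, with the second most negative value of the group, had no match in its window, and Aars, with a match, stood at -0.07 or, by its second probe set, at -0.23.

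Other genes of transfer RNA charging, a list not divided into cytosolic and mitochondrial genes, had a median close to that of the cytosolic enzymes. The floor was reached by 10 of 15 listed genes, 7 of them lower, with a median of -0.23, and 3 were at least 1.25-fold lower, beside 59.2% and 11.1% of all compared genes. Trnt1, which adds the CCA end to transfer RNA, read 9.61 and 9.12 (-0.49). Prorsd1, a relative of bacterial editing proteins that clear mischarged proline transfer RNA, read 10.16 and 9.74 (-0.41). Ppa1, a pyrophosphatase that removes the pyrophosphate released by charging, read 9.82 and 9.49 (-0.34). Sepsecs, which completes selenocysteine on its transfer RNA, differed by -0.24.

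Lists of the step after charging had medians nearer to that of all genes. Cytosolic translation factors had a median of -0.07 over 16 genes, 12 of them lower (75%). Eif2b5, a subunit of the exchange factor of eIF2, stood at -0.28, and Eif2s2 and Eif2b4 at -0.21 each, while Eif2s3x stood at 0.33. Cytosolic ribosomal proteins had a median of -0.05 over 41 genes, the same median as all compared genes, with 31 lower (75.6%). For both lists the share lower was above the 59.2% of all compared genes. Rpl27a, at 8.24 and 8.91 (0.67, 1.59-fold higher), differed by more than any synthetase, and Rps19 stood at 0.34, Rpl13a at -0.26 and Rps9 at -0.22.

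Ribosomal proteins of mitochondria had a median of 0.07 over 75 genes, 57 of them higher (40.0% of all genes were higher) and none 1.5-fold different. The farthest were Mrpl54 (0.40), Mrpl50 (0.39), Mrpl20 (0.35) and Mrpl34 (0.33). Of 7 mitochondrial translation factors, 3 were higher and 3 lower, with Tufm, the mitochondrial elongation factor Tu, at 0.27, Gfm1 at 0.21, Mtif3 at -0.13 and Mtif2 at -0.35.

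Genes of the amino acid response, many of them targets of ATF4, differed far more than the synthetases. This list was chosen with earlier results of these arrays known and is not independent evidence of a direction. Of 31 genes above the floor, 30 were lower, 19 at least 1.5-fold and 7 at least 2-fold, with a median of -0.65 and none 1.5-fold higher. Over all compared genes 59.2% were lower, 3.56% at least 1.5-fold and 1.22% at least 2-fold. At least 1.5-fold higher were 1.56%, and at least 2-fold higher 0.475%. Bcat1, an aminotransferase for branched-chain amino acids, read 9.15 and 7.51 (-1.64), Cth, which makes cysteine, 8.64 and 7.10 (-1.54), Slc1a5, a glutamine transporter, 8.50 and 7.05 (-1.46), and Slc7a3, a transporter of cationic amino acids, 8.24 and 7.01 (-1.22). Atf4 itself, named after its value had been seen, read 11.33 and 10.95 (-0.39). The most negative synthetase value, -0.52 for Iars, was closer to 0 than the median of this list.

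**Figure D4:**
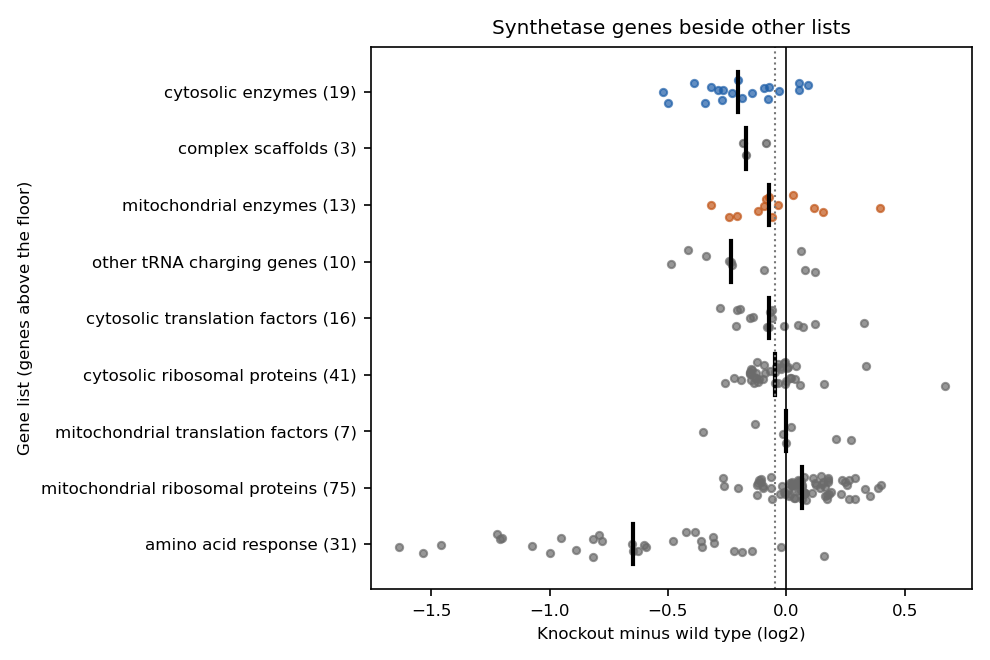
Knockout minus wild-type difference (log2, horizontal axis) of single genes above the floor in the synthetase groups and in 6 other lists, with the list median as a black bar and the median of all compared genes as a dotted line. Medians run from -0.65 for the amino acid response and -0.20 for the cytosolic enzymes to 0.07 for mitochondrial ribosomal proteins.

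These arrays also differed in cell type markers and in sex-linked genes. Both cultures showed chondrocyte markers, but all 11 above the floor of 12 listed were at least 2-fold lower in the knockout array. Of all compared genes 1.22% were. The median of the 11 was -2.00, and Matn1 was under the floor in both arrays. The mean log2 signal of the 12 was 11.1 in wild type against 8.99 in knockout. Of 10 fibroblast and perichondrium markers above the floor, 6 were higher and 4 lower, beside 40.0% and 59.2% of all compared genes. Their median was 0.11 (range -1.26 to 1.38), so this list had no common direction. The floor was reached by 1 of 4 endothelial, 1 of 5 skeletal muscle and 4 of 6 macrophage and leukocyte markers. Means of these lists were 5.38 to 6.40 in wild type and 5.40 to 6.37 in knockout, with no value over 8.23. Wwp2, whose intron holds Mir140, was 5.72-fold lower, Xist stood at 3.59, and 3 Y-linked genes read 7.75 to 8.86 in wild type but 3.87 to 4.18, far under the floor, in knockout. The sex of the mice is not stated by the labels. The X-linked Eif2s3x named above has a Y-linked partner, Eif2s3y, which is among those 3. In bulk RNA fewer cells of a type and less RNA per cell cannot be told apart. The part of cell makeup, sex or culture in the synthetase values was not tested. As a sign of RNA quality, the 3′ minus 5′ log2 signal of the Gapdh control was 0.13 in wild type against -0.01 in knockout, and that of beta-actin was 0.81 and 0.54. All 3 control probe sets for 18S ribosomal RNA were lower in the knockout array (-0.31, -0.52 and -1.28), and the part of this in the synthetase values was not tested.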

How the data were processed

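Total RNA of 1 wild-type and 1 miR-140 knockout culture was extracted with ISOGEN, amplified to biotin-labelled cRNA and hybridised to 1 array each, per the labels' protocols. The authors deposited log2 signals made with Robust Multichip Average (RMA), per the series' design text, in Affymetrix Expression Console 1.1, per the submitters' processing notes. Their range shows the log2 scale. RMA normalizes arrays to a common distribution (sorted values of the arrays differed by at most 0.157), so a shift shared by most genes would be removed.

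Of 45101 probe sets, 34945 had a single gene symbol in the platform annotation, 932 had several, 9160 had none and 64 were controls. RefSeq held 34741 of the 34945 by Entrez identifier, with 0 symbols changed. The brightest probe set by mean was kept for each of 18193 genes, and 9897 genes reached a floor of 7 in either array. With 1 array per group no test was possible, and precision is limited by the number of arrays. All members are named, as are up to 4 genes with the largest differences in each other translation list. Members and lists were chosen with earlier results of these data known. Medians and counts were run on simulated data as a check of the code. There the 1.5-fold count recovered 100% of 200 genes among 18193 that were changed by at least 2-fold. The simulated noise was small and not taken from replicates of these cultures. The check therefore does not show how precise the synthetase differences are, all of which were under 1.5-fold. Alternatives were median, quantile and lowess centring (span 0.2), floors of 6, 8 and none, the mean of all probe sets, probe sets of 1 transcript (no a, s or x suffix), low values raised to 7, other fold thresholds, and leaving out Gars and Kars. Python 3.11.15 and statsmodels 0.14.6 were used. A further promoter match is not reported here.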

Additional observations from a re-analysis of the deposited data

How the results depend on the processing

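The cytosolic median (-0.20) lay between -0.20 and -0.15 in every alternative run, and the mitochondrial median (-0.07) between -0.09 and -0.02 in all but one. With a floor of 8, which left 3 mitochondrial genes, the mitochondrial median turned to 0.16 and the cytosolic minus mitochondrial difference widened to -0.36. In the other alternatives that difference lay between -0.14 and -0.09, the latter with the mean of all probe sets, which left 8 mitochondrial genes. A change of up to 0.1 was treated as no change, since no replicate spread exists. The count of genes at least 1.5-fold lower was 0 in both groups under each scaling, floor and probe set choice. It is therefore also 0 at 2-fold. Counting any lower value gave 16 cytosolic and 9 mitochondrial genes, and a 1.25-fold threshold, added after the data were seen, gave 4 cytosolic genes. After subtracting the median of all genes, 15 of 19 cytosolic and 8 of 13 mitochondrial genes were lower. Single genes kept their sign for 17 of 19 cytosolic and 12 of 13 mitochondrial members in the alternatives that gave them a value, which were 6 to 9 of 9. The exceptions were Qars, at -0.03 to 0.07, Farsa, at 0.07 with probe sets of 1 transcript, and Nars2, at -0.04 to 0.01. A different floor changes which genes are counted but not the value of a gene, and raising low values cannot reverse a sign. Only the centring and probe set alternatives could therefore turn a sign. No paired analysis was possible because each group has 1 array, and no array could be left out for the same reason.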
